A study of Homo sapiens with 24 samples.

Results

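The 39 genes described here encode the machinery of homologous recombination, the Fanconi anaemia pathway and the ATM and ATR checkpoint. They were chosen by symbol for their role, with no threshold on measured values but with earlier results of these data known, and make up 39 of the 60675 genes in the deposited count tables. All 39 passed the filter on low counts in each of the 14 comparisons made, so every count below is out of 39. RNA-seq was performed on 24 libraries from 2 human kidney cell lines, with 3 libraries in each of 8 groups. ACHN is a renal carcinoma line that the labels call ccRCC (clear cell renal cell carcinoma), and HK-2 (HK2 in the labels) is an immortalised line from normal kidney tubule. In each line the groups were shNC (a control hairpin), shKDM5C (a hairpin against the histone H3K4 demethylase KDM5C), shYY1 (a hairpin against the transcription factor YY1) and Dsh (both knocked down). All groups grew in DMEM with serum, and every group including shNC carried a hairpin. According to the study's methods the cells were infected with lentivirus and selected with puromycin, and the Dsh cells were made by adding a KDM5C hairpin vector with a green fluorescent marker to cells already depleted of YY1 and selecting for resistance and fluorescence. The methods do not say whether the other groups went through a second infection and selection. If they did not, its effect cannot be told apart from that of the double knockdown in any Dsh comparison or interaction. The question asked was whether loss of KDM5C together with loss of YY1 changes the cells more than either loss alone.

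Homologous recombination repairs a broken chromosome by copying the intact sister DNA. The broken end is trimmed to a single strand, a recombinase filament is loaded onto that strand by BRCA2 and its partners, and the filament invades the sister. The Fanconi pathway repairs crosslinks that join the strands of the double helix: a core complex attaches ubiquitin to the FANCD2-FANCI clamp, and nucleases then cut the crosslink free. ATM and ATR are the kinases that report breaks and stalled forks to the cell cycle through CHEK2 and CHEK1. Many of these genes are known to be transcribed mainly in S and G2 phase, so their RNA levels are known to follow how many cells in a culture are dividing.

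The knockdowns were checked first, in CPM (the count of a gene scaled to the depth of its library, with TMM scaling over the 24 libraries). In ACHN, KDM5C was at 71.2, 71 and 70.2 CPM in shNC, 42.1, 44.6 and 42.4 in shKDM5C, 89.3, 89 and 93.8 in shYY1 and 40, 41.3 and 40.5 in Dsh. In HK-2 the same gene was at 189.6, 188 and 194 CPM in shNC, 34.1, 67.5 and 67.1 in shKDM5C, 259, 240.2 and 231 in shYY1 and 67.6, 65.6 and 71.3 in Dsh. YY1 was at 135, 139 and 143 CPM in ACHN shNC, 80, 73 and 77.4 in ACHN shYY1 and 90.4, 104 and 96.2 in ACHN Dsh. In HK-2, YY1 was at 210.2, 212 and 200.3 CPM in shNC, 61.8, 67.1 and 62.9 in shYY1 and 75.3, 75.2 and 72.2 in Dsh. Both targets were thus lower in every library labelled as their knockdown, and the remaining share of YY1 RNA was larger in ACHN Dsh than in HK-2 Dsh. Library totals ran from 15926561 to 24272298 assigned read pairs, and the 39 genes took 0.127% to 0.23% of them. The tubule markers PAX8, PAX2, KRT8, KRT18, CDH16 and GGT1 averaged at least 9.66 CPM in shNC of both lines, while the proximal tubule markers LRP2, CUBN and ANPEP averaged at most 0.766 CPM. Of the clear cell carcinoma markers in ACHN shNC, CA9 averaged 0.125 CPM and NDUFA4L2 1.43 CPM, while VIM, which is not specific to that tumour, averaged 680.0 CPM. A single library stood apart: HK-2 shKDM5C replicate 1 differed from the other replicates of its group by a root mean square of 0.707 to 0.713 on the log2 scale over genes, against 0.205 between those other replicates. In it 22 of the 39 genes were above and 12 below both other replicates, and 13 were more than 1.5-fold above their mean. BRCA2 was at 132, 52.4 and 55.1 CPM in replicates 1, 2 and 3 of that group. The counts of every HK-2 comparison that uses shKDM5C are therefore given with and without this library, while values of some single genes are given only with it.

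To show the sequences from which these genes are read, the 250 bases before the start of 4 genes that moved in ACHN Dsh follow, from RefSeq (GRCh38.p14), 5′ to 3′ along the gene. FANCC, RAD54L and UBE2T were among the genes that fell and ATM is the gene that rose most. Capitals mark any match to 6 motifs searched on both strands.
FANCC, minus strand, chr9:95317710-95317959: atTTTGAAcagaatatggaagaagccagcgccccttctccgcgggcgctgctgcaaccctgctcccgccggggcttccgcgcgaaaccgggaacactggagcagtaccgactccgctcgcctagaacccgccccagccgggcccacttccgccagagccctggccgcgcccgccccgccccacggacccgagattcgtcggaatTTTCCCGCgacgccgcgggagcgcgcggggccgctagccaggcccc
RAD54L, plus strand, chr1:46247513-46247762: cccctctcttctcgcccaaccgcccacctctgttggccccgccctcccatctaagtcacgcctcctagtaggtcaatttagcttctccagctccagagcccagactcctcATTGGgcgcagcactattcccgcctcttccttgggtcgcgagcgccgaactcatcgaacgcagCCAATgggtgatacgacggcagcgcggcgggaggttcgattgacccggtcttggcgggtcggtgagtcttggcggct
UBE2T, minus strand, chr1:202341937-202342186: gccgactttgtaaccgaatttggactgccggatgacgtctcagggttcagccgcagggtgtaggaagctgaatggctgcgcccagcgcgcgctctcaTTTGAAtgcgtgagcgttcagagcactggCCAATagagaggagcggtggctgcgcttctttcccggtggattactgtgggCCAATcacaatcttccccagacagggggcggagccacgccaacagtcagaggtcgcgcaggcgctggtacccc
ATM, plus strand, chr11:108222817-108223066: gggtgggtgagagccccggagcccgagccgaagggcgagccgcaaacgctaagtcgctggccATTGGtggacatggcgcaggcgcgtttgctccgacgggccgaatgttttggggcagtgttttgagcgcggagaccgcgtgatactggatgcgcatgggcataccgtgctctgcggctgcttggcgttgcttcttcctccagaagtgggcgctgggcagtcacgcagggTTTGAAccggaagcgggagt
The FANCC stretch holds TTTCCCGC, an E2F site sequence, 46 bases before the start, and TTTGAA, a cell cycle homology region sequence, near its far end. RAD54L holds CCAAT on both strands, UBE2T holds TTTGAA and 2 copies of CCAAT, and ATM holds TTTGAA 20 bases before the start and CCAAT on the opposite strand. The table held 48 windows (250 bases before to 50 after a start) for 36 of the 39 genes, since 11 genes have more than 1 start. FANCI, NBN and RAD54B are named here without a promoter sequence. TTTCCCGC was in 3 of the 48 windows (6.25%, those of FANCC, FANCD2 and XRCC2) and in 1.63% of all 35097 windows of the table. CCAAT was in 41.7% of the member windows and 34.6% of all windows. TTTGAA was in 8.33% and 15.2%. AAGATGGC, the only form of the YY1 site searched, was in none of the member windows and in 2.89% of all windows. Shorter forms of that site were not searched. TTTGGCGC and TTCGAA were also in none of the member windows, and were in 0.652% and 1.45% of all windows. Letters that match are a description of these windows only. FANCD2, which holds the same E2F letters as FANCC, did not pass the test in ACHN Dsh, and XRCC2, which also holds them, fell. The 4 genes shown all hold matches, whereas the windows of EXO1 and FANCE, which fell further than UBE2T in ACHN Dsh, hold none.

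In control cells the genes differed widely in level. Per kilobase of exon (RPKM, the CPM of a gene divided by its exon length, the scale used wherever genes are compared with each other), the median of the 39 genes was 5.01 in ACHN shNC and 5.67 in HK-2 shNC. UBE2T, the ubiquitin-conjugating enzyme of the Fanconi core, had the highest level in both lines, at 37.4 ± 0.926 RPKM (SD, n = 3) in ACHN and 39.7 ± 2.02 in HK-2. NBN, the subunit that ties the MRE11 complex to ATM, came next by mean, at 15.1 ± 0.517 RPKM in ACHN and 30.3 ± 1.06 in HK-2. Its replicate range overlapped that of RAD51AP1 in ACHN. RAD51B, a paralog of the recombinase, had the lowest, at 0.834 ± 0.186 RPKM in ACHN and 0.382 ± 0.0467 in HK-2. When the genes were ordered by mean level, the replicate ranges of 28 of the 38 neighbouring pairs overlapped in ACHN and those of 27 did in HK-2, so the order of most neighbouring genes is not resolved.

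**Figure D1:**
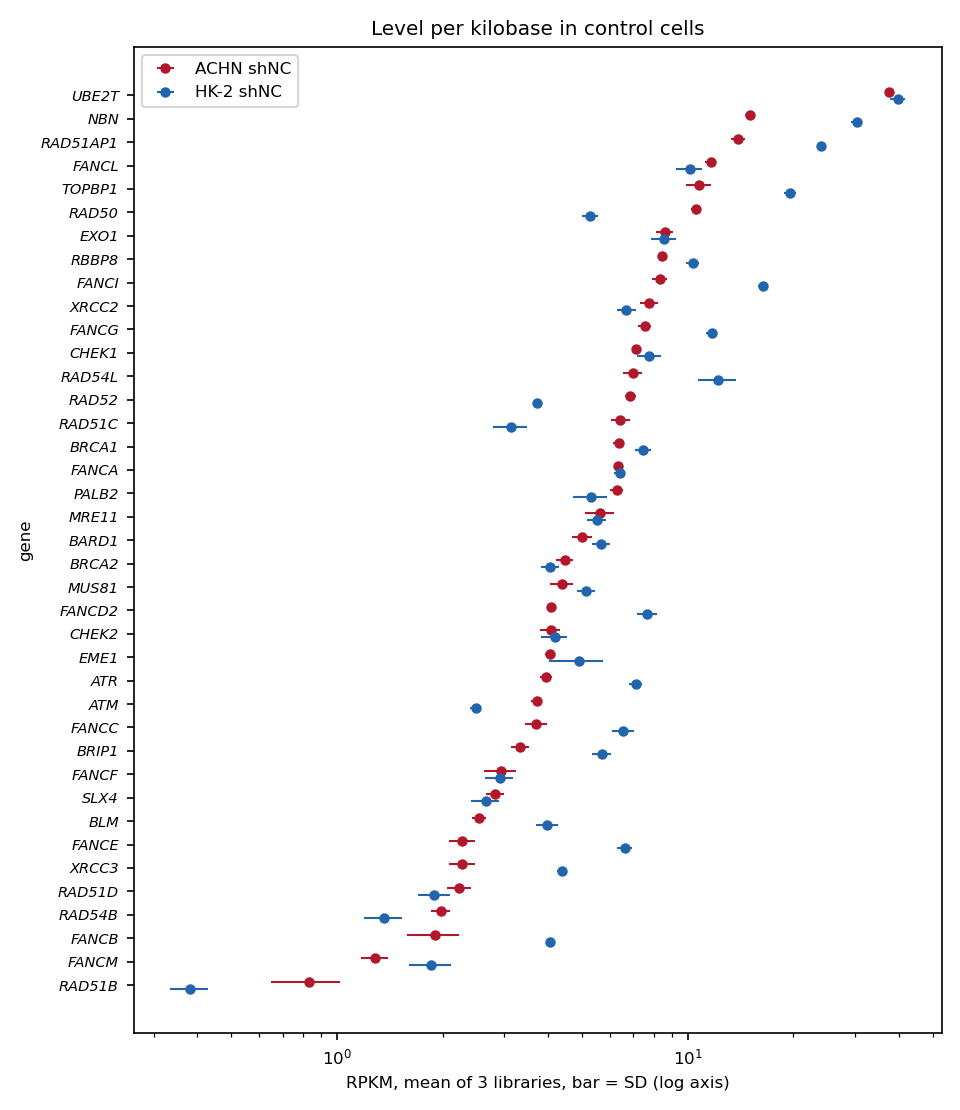
Level of each of the 39 genes per kilobase of exon (RPKM, log axis) in ACHN shNC (red) and HK-2 shNC (blue). Points are means of 3 libraries and bars are SD. UBE2T is highest and RAD51B lowest in both lines, and FANCE shows the widest gap between the lines in which HK-2 is higher.

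Control ACHN and control HK-2 cells were compared next. Of the 39 genes, 21 were lower and 10 higher in ACHN shNC than in HK-2 shNC, whereas 38% of the 16988 genes tested were lower and 38.6% higher. Calls throughout are from edgeR's quasi-likelihood test with a Benjamini-Hochberg adjusted p under 0.05 over all genes tested. The median log2 difference of the 39 genes was -0.19, and that of all genes tested was 0.02. Among the Fanconi genes, FANCE, the core subunit that binds FANCD2, was at 5.66, 6.36 and 5.41 CPM in ACHN and 17.1, 17.6 and 16 in HK-2 (log2 difference -1.55, SE 0.12, adjusted p = 3.17e-12). FANCB, a core subunit encoded on the X chromosome, was at 4.93, 6.58 and 6.82 CPM in ACHN and 12.8, 13.4 and 12.9 in HK-2 (log2 difference -1.10, SE 0.13, adjusted p = 2.24e-08). Both subunits of the clamp were lower in ACHN. FANCI was at 61.1, 65.9 and 66.8 CPM in ACHN against 125, 132 and 126 in HK-2 (log2 difference -0.99, SE 0.047, adjusted p = 6.07e-17). FANCD2 was at 33.9, 33.4 and 35.3 CPM against 67.3, 59.4 and 66.1 (log2 difference -0.92, SE 0.061, adjusted p = 1.3e-13). NBN was at 92.5, 89.7 and 96 CPM against 189, 191 and 179 (log2 difference -1.02, SE 0.042, adjusted p = 2.29e-18). None of these 5 genes had overlapping groups. XRCC3, a recombinase paralog, was at 17.3, 15.5 and 18.4 CPM against 33.4, 31.7 and 33.8 (log2 difference -0.96, SE 0.081, adjusted p = 2.17e-11), but 76.7% of its exon bases are shared with KLC1 and counting did not use strand, so its values are uncertain.

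The 6 genes with the largest excess in ACHN included 2 recombinase paralogs. RAD51B was at 4.72, 7.44 and 6.55 CPM in ACHN and 2.68, 3.26 and 2.62 in HK-2 (log2 difference 1.12, SE 0.19, adjusted p = 8.38e-06). RAD51C, a paralog that sits in both paralog complexes, was at 36.6, 38.9 and 41.5 CPM against 17.1, 21.2 and 18.8 (log2 difference 1.03, SE 0.081, adjusted p = 4.37e-12). Neither pair of groups overlapped. RAD50, the coiled ATPase partner of MRE11, was at 102, 101 and 107 CPM against 51.6, 54.2 and 48.8 (log2 difference 0.99, SE 0.051, adjusted p = 3.84e-16), the opposite direction to its complex partner NBN. RAD52, which anneals single strands, was at 29.9, 28.1 and 28.3 CPM against 15.7, 15.2 and 15.9 (log2 difference 0.88, SE 0.082, adjusted p = 1.7e-10). The kinase ATM was at 79.7, 85.5 and 83.3 CPM against 53, 56.5 and 56.8 (log2 difference 0.57, SE 0.051, adjusted p = 7.54e-11). RAD54B, a DNA motor protein, was at 10.9, 11.1 and 12.2 CPM against 7.38, 7.23 and 9.01 (log2 difference 0.52, SE 0.13, adjusted p = 0.000569), with 55.1% of its exon bases shared with FSBP. MRE11, the nuclease of the same complex as NBN and RAD50, differed by 0.02 (SE 0.070) and did not pass the test. A single line stands on each side, so these are differences between ACHN and HK-2 and not between cancer and normal kidney.

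In ACHN, knockdown of KDM5C and YY1 together lowered 22 of the 39 genes and raised 6, and 11 did not pass the test. Over all 16454 genes tested, 32% were lower and 30.7% higher, so the share of these genes that was lower (56.4%) was above the background and the share that was higher (15.4%) below it. The median log2 change of the 39 genes was -0.25, and that of all genes was -0.01. The changes were moderate, from -1.13 to 0.69 on the log2 scale, and none reached the absolute log2 change of 1.5 that the study used as its threshold. Because the libraries are of bulk RNA, fewer cells expressing a gene and less of its RNA per cell cannot be told apart. On leaving out each of the 6 libraries in turn, 21 of the 28 calls were kept every time.

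**Figure D2:**
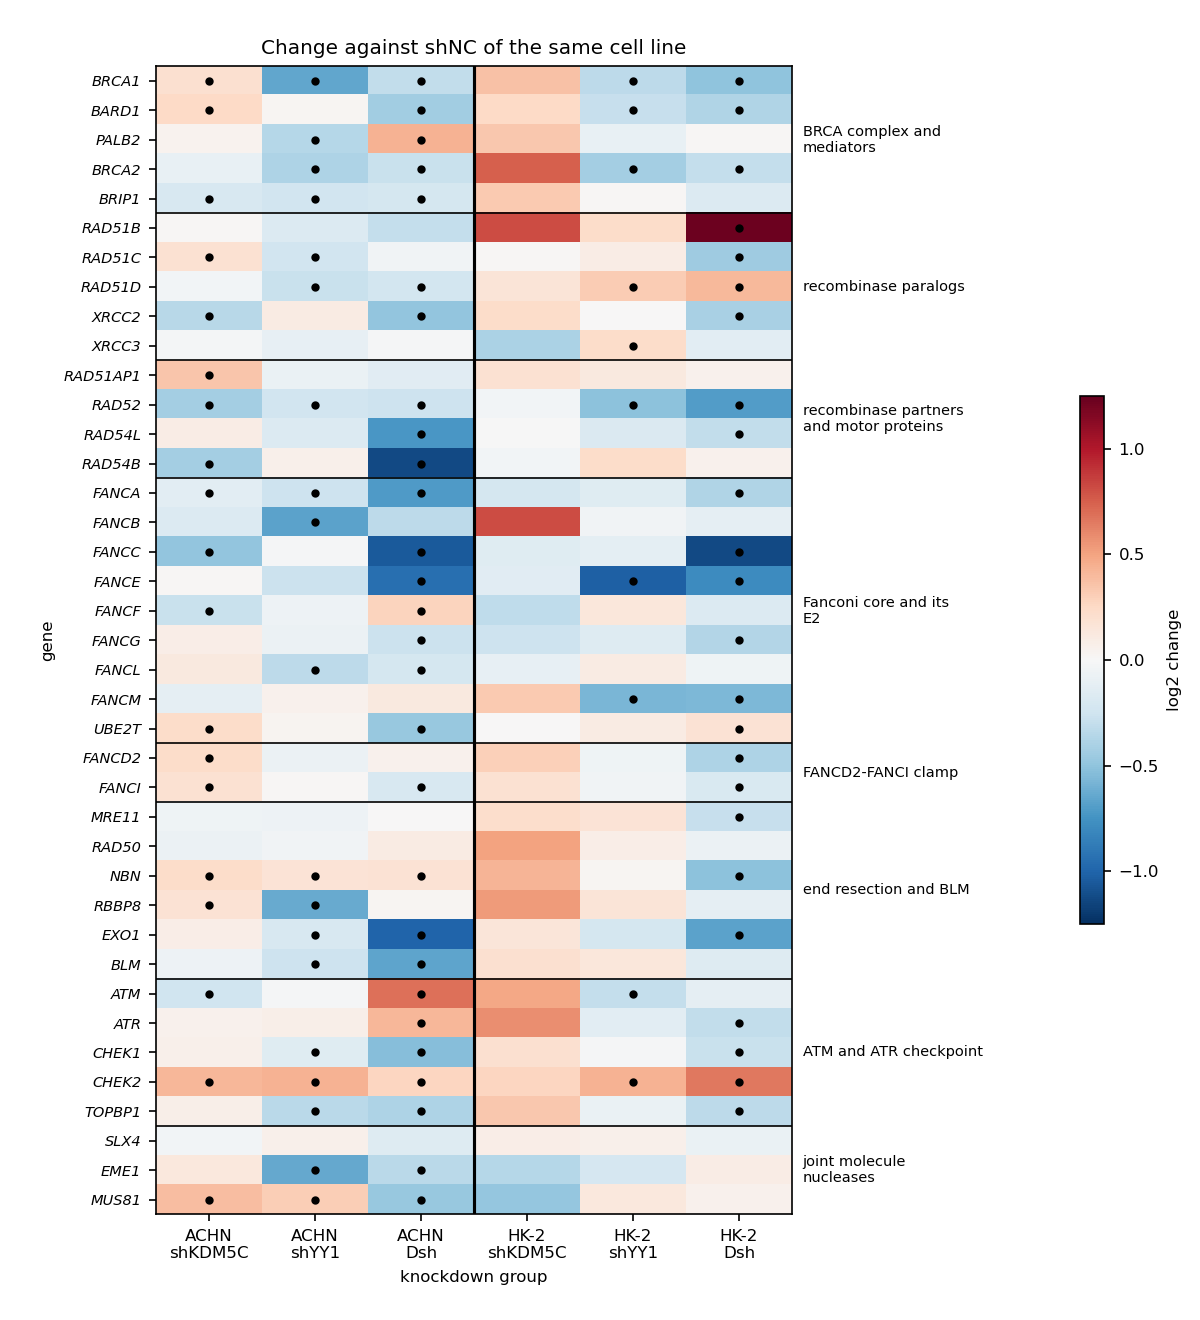
Log2 change of the 39 genes against shNC of the same line in shKDM5C, shYY1 and Dsh cells of ACHN (left) and HK-2 (right), grouped by role. Colour runs from blue (lower) to red (higher) and a dot marks an adjusted p under 0.05. In Dsh, 22 genes are lower and 6 higher in ACHN and 20 are lower and 4 higher in HK-2, and no gene carries a dot in HK-2 shKDM5C.

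RAD54B, FANCC and EXO1 fell furthest in ACHN Dsh, and RAD54L was among the next. RAD54B was at 10.9, 11.1 and 12.2 CPM in shNC and 5.61, 5.59 and 4.48 in Dsh (log2 change -1.13, SE 0.13, adjusted p = 3.96e-07), and 55.1% of its exon bases are shared with FSBP. RAD54L, the motor protein that remodels the recombinase filament, was at 23.2, 23.1 and 20.8 CPM in shNC and 12.9, 14.8 and 12.7 in Dsh (log2 change -0.73, SE 0.093, adjusted p = 1.46e-06), and 25.1% of its exon bases are shared with LRRC41. All Dsh libraries lay below all shNC libraries for both motor genes. EXO1, the nuclease that lengthens the resected strand, was at 36.6, 33.4 and 36.8 CPM in shNC and 17.4, 18.2 and 17.3 in Dsh (log2 change -1.01, SE 0.075, adjusted p = 1.21e-09). Its Dsh values were within 1 CPM of each other and below every shNC library. BLM, the helicase that works with EXO1 and dissolves joined molecules, was at 17.5, 16.4 and 16 CPM in shNC and 10.5, 10.2 and 10.8 in Dsh (log2 change -0.66, SE 0.096, adjusted p = 8.32e-06). The starting enzymes of resection did not fall with them. MRE11 changed by 0.00 (SE 0.071, adjusted p = 0.998), RAD50 by 0.11 (SE 0.055, adjusted p = 0.105) and RBBP8, which activates MRE11, by 0.03 (SE 0.068, adjusted p = 0.729). NBN rose, from 92.5, 89.7 and 96 CPM to 104, 109 and 101 (log2 change 0.18, SE 0.050, adjusted p = 0.00454).

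Of the 9 genes of the Fanconi core and its conjugating enzyme, 6 fell in ACHN Dsh and 1 rose. FANCC, which forms a core module with FANCE and FANCF, was at 27.2, 29.2 and 31.5 CPM in shNC and 13.6, 15.2 and 13.5 in Dsh (log2 change -1.05, SE 0.087, adjusted p = 5.09e-09). FANCE was at 5.66, 6.36 and 5.41 CPM in shNC and 2.52, 2.27 and 4.03 in Dsh (log2 change -0.95, SE 0.20, adjusted p = 0.000382). FANCF moved the other way, from 12.4, 13.9 and 11.3 CPM to 14, 14.1 and 16.9 (log2 change 0.28, SE 0.11, adjusted p = 0.0351). Members of that module thus changed in opposite directions, and the call on FANCF was lost on leaving out 3 of the 6 libraries. FANCA, the subunit that pairs with FANCG, was at 61.2, 61.5 and 61.8 CPM in shNC and 35.7, 39.8 and 37.4 in Dsh (log2 change -0.70, SE 0.060, adjusted p = 6.95e-09), and 23.6% of its exon bases are shared with ZNF276. UBE2T was at 40.5, 38.7 and 40.2 CPM in shNC and 29.6, 27 and 28.7 in Dsh (log2 change -0.48, SE 0.067, adjusted p = 5.71e-06), with no overlap between the groups. FANCG fell by 0.27 on the log2 scale and FANCL, the catalytic ligase of the core, fell by 0.22. Each of these calls was lost on leaving out 2 of the 6 libraries, and FANCL shares 19.7% of its exon bases with VRK2. Of the clamp, FANCI went from 61.1, 65.9 and 66.8 CPM to 53.8, 58.3 and 55.9 (log2 change -0.20, SE 0.058, adjusted p = 0.00556), while FANCD2 changed by 0.06 (SE 0.080, adjusted p = 0.563).

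In the BRCA group 4 of 5 genes fell in ACHN Dsh and PALB2, the bridge between BRCA1 and BRCA2, rose. PALB2 was at 28.7, 29.6 and 31.1 CPM in shNC and 37.8, 45 and 37.6 in Dsh (log2 change 0.43, SE 0.078, adjusted p = 8.18e-05). BARD1, the obligate partner of BRCA1, was at 29.4, 29 and 32.7 CPM in shNC and 21.4, 25.4 and 20.7 in Dsh (log2 change -0.43, SE 0.086, adjusted p = 0.000252). BRCA1 itself fell by 0.30 on the log2 scale, BRCA2 fell by 0.28 and the BRCA1-binding helicase BRIP1 fell by 0.22, the call on BRIP1 being lost on leaving out 3 of the 6 libraries. Among the recombinase paralogs XRCC2 fell most, from 36.8, 36 and 40.3 CPM to 27.3, 26.7 and 26.1 (log2 change -0.49, SE 0.070, adjusted p = 6.75e-06). RAD51D fell by 0.23 on the log2 scale, a call lost on leaving out 3 of the 6 libraries, and RAD51B, RAD51C and XRCC3 did not pass the test.

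The checkpoint genes split into both directions in ACHN Dsh, 3 higher and 2 lower. ATM was at 79.7, 85.5 and 83.3 CPM in shNC and 127, 140.3 and 132 in Dsh (log2 change 0.69, SE 0.051, adjusted p = 1.11e-09). That was the largest rise among the 39 genes, and every Dsh library lay far above every shNC library. ATR was at 48, 48.3 and 51.6 CPM in shNC and 61.4, 68.7 and 66.2 in Dsh (log2 change 0.41, SE 0.060, adjusted p = 6.78e-06), and 16.4% of its exon bases are shared with EIF2AK1P1. CHEK2, the effector kinase below ATM, was at 17.3, 15.6 and 17.6 CPM in shNC and 18.8, 22.3 and 19.6 in Dsh (log2 change 0.27, SE 0.092, adjusted p = 0.0165), a call lost on leaving out 2 of the 6 libraries. The upstream kinases rose, but the effector below ATR did not. CHEK1 was at 45.5, 47.6 and 47 CPM in shNC and 32.8, 32.2 and 31.2 in Dsh (log2 change -0.54, SE 0.062, adjusted p = 5.03e-07), and TOPBP1, which switches ATR on, was at 67.3, 66.3 and 76.5 CPM and 53.5, 53.1 and 53.1 (log2 change -0.39, SE 0.060, adjusted p = 1.71e-05). Of the joint molecule nucleases, MUS81 was at 26.1, 23.3 and 22.7 CPM in shNC and 16.1, 15 and 20.2 in Dsh (log2 change -0.47, SE 0.10, adjusted p = 0.000572), and 14.1% of its exon bases are shared with CFL1. Its partner EME1, which shares 16.4% of its exon bases with LRRC59, fell by 0.34 on the log2 scale. That call was lost on leaving out 2 of the 6 libraries. The scaffold SLX4 changed by -0.16 (SE 0.081, adjusted p = 0.0908).

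**Figure D3:**
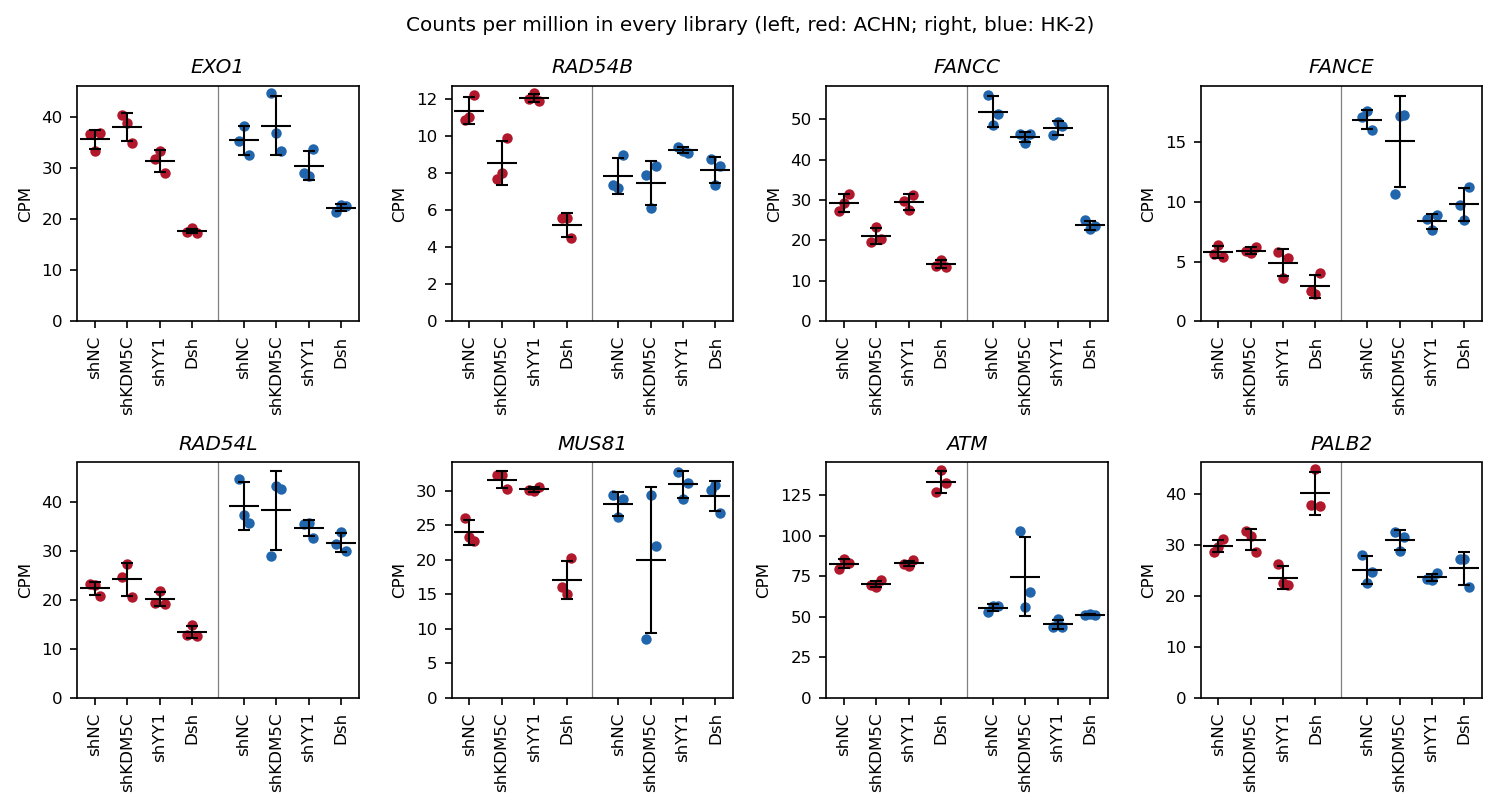
CPM of 8 genes in every library, with ACHN in red on the left and HK-2 in blue on the right of each panel. Points are libraries, horizontal bars are means of 3 and error bars are SD. EXO1 and FANCC are lowest in Dsh of both lines, ATM is highest in ACHN Dsh, and HK-2 shKDM5C replicate 1 stands apart for MUS81, at 8.54 CPM, and for ATM, at 103 CPM.

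Knockdown of KDM5C alone in ACHN moved genes both ways. Of the 39, 8 were lower and 11 higher, against 27.7% lower and 28.9% higher of the 16184 genes tested, and the median log2 change was 0.04. The share of these genes that was higher (28.2%) was thus near the background, and the share that was lower (20.5%) was below it. FANCC was at 19.6, 23.3 and 20.4 CPM in shKDM5C (log2 change -0.49, SE 0.076, adjusted p = 4.85e-06), below all shNC libraries. RAD54B was at 7.69, 8.04 and 9.9 CPM (log2 change -0.43, SE 0.11, adjusted p = 0.00223). RAD52 was at 21.1, 21.2 and 22.7 CPM against 29.9, 28.1 and 28.3 in shNC (log2 change -0.42, SE 0.068, adjusted p = 7.91e-06). XRCC2 was at 30.9, 27.8 and 30.7 CPM (log2 change -0.35, SE 0.064, adjusted p = 4.81e-05). ATM fell here, to 69.9, 68.6 and 72.5 CPM (log2 change -0.25, SE 0.044, adjusted p = 3.09e-05), the opposite of its direction in Dsh. FANCF was at 10.3, 10.9 and 10.1 CPM (log2 change -0.28, SE 0.10, adjusted p = 0.0219), a call lost on leaving out 3 of the 6 libraries. Without shKDM5C replicate 1, 5 genes were lower rather than 8.

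The genes that rose with KDM5C knockdown in ACHN were led by CHEK2, at 21.7, 22 and 24.3 CPM (log2 change 0.42, SE 0.079, adjusted p = 7.82e-05). MUS81 was at 32.3, 32.4 and 30.3 CPM in shKDM5C (log2 change 0.38, SE 0.068, adjusted p = 2.93e-05), with every library above shNC, whereas in Dsh it was below. RAD51AP1, which helps the recombinase invade, was at 34.2, 35.2 and 37.5 CPM in shNC and 46.6, 45.7 and 45.4 in shKDM5C (log2 change 0.35, SE 0.055, adjusted p = 6.48e-06). BARD1 was at 35.9, 36.9 and 36.4 CPM (log2 change 0.25, SE 0.062, adjusted p = 0.00147) and NBN at 109.6, 111 and 109 CPM (log2 change 0.23, SE 0.039, adjusted p = 1.65e-05). UBE2T was at 48, 48.9 and 44.3 CPM (log2 change 0.23, SE 0.054, adjusted p = 0.000929). BRCA1, RAD51C, FANCD2, FANCI and RBBP8 also rose, by 0.18 to 0.23 on the log2 scale. Among the genes that rose, BRCA1, BARD1, UBE2T, FANCI and MUS81 were called lower than shNC in Dsh. The share of all genes that did so was not computed.

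Knockdown of YY1 alone in ACHN lowered more of these genes than it raised. Of the 39, 16 were lower, 3 higher and 20 not called, against 24.5% lower and 24.2% higher of the 16370 genes tested, and the median log2 change was -0.10. BRCA1 was at 59, 56.4 and 54.7 CPM in shNC and 36.9, 37.6 and 35.5 in shYY1 (log2 change -0.65, SE 0.053, adjusted p = 2.08e-12). The 2 groups were well apart, and the Dsh libraries, at 45.6, 48.9 and 42.9 CPM, lay between them. RBBP8 was at 43.6, 42.6 and 42.9 CPM in shNC, 26.9, 27.1 and 30.6 in shYY1 and 43.5, 47.8 and 40.1 in Dsh (log2 change -0.63, SE 0.059, adjusted p = 4.64e-11 for shYY1). EME1 was at 13.1, 13.8 and 13.2 CPM in shNC and 8.22, 9.1 and 8.79 in shYY1 (log2 change -0.64, SE 0.098, adjusted p = 1.63e-06). FANCB, a gene of low count, was at 4.93, 6.58 and 6.82 CPM in shNC and 3.04, 4.15 and 4.53 in shYY1 (log2 change -0.67, SE 0.16, adjusted p = 0.000985). BRCA2 was at 51.8, 54.7 and 57.7 CPM in shNC and 44.2, 40.3 and 42.9 in shYY1 (log2 change -0.39, SE 0.054, adjusted p = 2.49e-07). PALB2 fell to 26.2, 22.5 and 22.1 CPM (log2 change -0.36, SE 0.068, adjusted p = 4.09e-05), so the 3 genes of the BRCA1, PALB2 and BRCA2 chain were lower together.

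Of the genes that fell furthest in ACHN Dsh, some were little changed by YY1 loss alone and others were lower. FANCC was at 29.7, 27.5 and 31.3 CPM in shYY1 (adjusted p = 0.915) and RAD54B at 12, 12.3 and 11.9 CPM (adjusted p = 0.61), both within or next to the shNC range. RAD54L (adjusted p = 0.0565) and FANCE (adjusted p = 0.166) did not pass the test. EXO1 was at 31.7, 33.4 and 29.1 CPM (log2 change -0.20, SE 0.062, adjusted p = 0.00681), with 1 shYY1 library reaching the shNC range. FANCA (log2 change -0.26, SE 0.047, adjusted p = 2.25e-05) was also lower. So was BLM (log2 change -0.26, SE 0.084, adjusted p = 0.0103), a call lost on leaving out 2 of the 6 libraries. Higher after YY1 loss were CHEK2, at 25.7, 20.6 and 22.8 CPM (log2 change 0.43, SE 0.080, adjusted p = 2.81e-05), MUS81, at 30.1, 30 and 30.6 CPM (log2 change 0.31, SE 0.064, adjusted p = 0.000127), and NBN, at 103, 108 and 106 CPM (log2 change 0.17, SE 0.038, adjusted p = 0.000395). ATM, at 82.7, 81.4 and 84.9 CPM, did not pass the test (adjusted p = 0.728).

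Set directly against each single knockdown in ACHN, Dsh cells had lower levels of some of these genes and higher levels of others. The Dsh libraries are shared by these comparisons, and the values are given side by side. Against shKDM5C, 20 of the 39 genes were lower and 5 higher in Dsh (background 30.9% and 31.6% of 16112 genes). Against shYY1, 15 were lower and 7 higher (background 32.7% and 32% of 16414 genes), so that the 38.5% lower was near the background, and the median log2 change was -0.04. EXO1 was lower than in shKDM5C (log2 change -1.08, SE 0.077, adjusted p = 2.11e-09) and than in shYY1 (log2 change -0.82, SE 0.077, adjusted p = 7.27e-08). RAD54B was likewise lower than in shKDM5C (log2 change -0.69, SE 0.15, adjusted p = 0.000694) and in shYY1 (log2 change -1.21, SE 0.12, adjusted p = 2.11e-07). For both genes the Dsh values were below those of every library of either single knockdown. MUS81 differed from shKDM5C (log2 change -0.85, SE 0.098, adjusted p = 7.52e-07) and from shYY1 (log2 change -0.80, SE 0.095, adjusted p = 1.26e-06). It was above shNC in each single knockdown and below shNC in Dsh. RAD54L differed from shKDM5C (log2 change -0.83, SE 0.11, adjusted p = 2.7e-06) and from shYY1 (log2 change -0.58, SE 0.094, adjusted p = 4.23e-05). FANCE differed from shKDM5C (log2 change -0.96, SE 0.20, adjusted p = 0.000489), but its Dsh and shYY1 libraries overlapped. UBE2T was lower than in shKDM5C (log2 change -0.70, SE 0.069, adjusted p = 1.19e-07). FANCC was lower than in shYY1 (log2 change -1.06, SE 0.083, adjusted p = 7.97e-09), and so was XRCC2 (log2 change -0.61, SE 0.065, adjusted p = 3.22e-07), whose Dsh level was near that of shKDM5C.

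In the other direction, ATM stood out in ACHN Dsh against shKDM5C (log2 change 0.94, SE 0.053, adjusted p = 8.87e-11) and against shYY1 (log2 change 0.69, SE 0.049, adjusted p = 2.29e-09). PALB2 was higher than in shKDM5C (log2 change 0.39, SE 0.081, adjusted p = 0.000422) and than in shYY1 (log2 change 0.77, SE 0.087, adjusted p = 6.55e-07). ATR was higher than in shKDM5C (log2 change 0.36, SE 0.063, adjusted p = 8.11e-05) and in shYY1 (log2 change 0.33, SE 0.060, adjusted p = 0.00014). No library of either single knockdown reached the Dsh range of these 3 genes. FANCF was higher than in shKDM5C (log2 change 0.56, SE 0.11, adjusted p = 0.000231) and in shYY1 (log2 change 0.32, SE 0.11, adjusted p = 0.0192), the latter call being lost on leaving out 2 of the 6 libraries. RAD50 was higher than in shKDM5C (log2 change 0.18, SE 0.055, adjusted p = 0.00934), where its values were 99.2, 99.5 and 99 CPM against 107, 120.3 and 105 in Dsh, and its call was lost without shKDM5C replicate 3 (adjusted p = 0.0531). RBBP8 (log2 change 0.64, SE 0.078, adjusted p = 1.59e-06) and BRCA1 (log2 change 0.33, SE 0.066, adjusted p = 0.000377) were higher in Dsh than in shYY1, in which both were lower than in shNC.

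Whether the effects of the knockdowns added up was tested by their interaction, the change in Dsh beyond the sum of the single knockdown changes on the log2 scale. YY1 RNA itself was higher in Dsh than in shYY1, by 0.35 in ACHN (SE 0.057, adjusted p = 5.36e-05). In HK-2 it was higher by 0.22 (SE 0.064, adjusted p = 0.00645). The part of this unequal depletion in the interactions, and in the comparisons of Dsh with shYY1, was not tested. In ACHN the interaction was negative for 17 genes and positive for 7, against 28.8% and 26.8% of the 17228 genes tested. MUS81, which shares 14.1% of its exon bases with CFL1, departed furthest (log2 interaction -1.19, SE 0.12, adjusted p = 5.63e-09), since it rose in each single knockdown and fell in Dsh. EXO1 (log2 interaction -0.91, SE 0.10, adjusted p = 2.61e-08), RAD54B (log2 interaction -0.79, SE 0.17, adjusted p = 0.000319) and UBE2T (log2 interaction -0.76, SE 0.088, adjusted p = 5.13e-08) followed. These genes were below what the sum of the single knockdowns gives. BARD1 (log2 interaction -0.72, SE 0.12, adjusted p = 9.08e-06) and FANCE (log2 interaction -0.72, SE 0.26, adjusted p = 0.0237) were also negative, the latter losing its call on leaving out 5 of the 12 libraries. Positive departures were largest for ATM (log2 interaction 0.94, SE 0.066, adjusted p = 6.59e-12) and PALB2 (log2 interaction 0.72, SE 0.11, adjusted p = 5.04e-06). The remaining positive genes with the largest values were FANCF (log2 interaction 0.60, SE 0.15, adjusted p = 0.00191), RBBP8 (log2 interaction 0.46, SE 0.093, adjusted p = 0.00015), RAD52 (log2 interaction 0.38, SE 0.10, adjusted p = 0.00295) and ATR (log2 interaction 0.27, SE 0.080, adjusted p = 0.0066). For RBBP8 and RAD52 the departure meant that Dsh was closer to shNC than the summed changes, not that Dsh was above shNC. CHEK2, raised in all 3 knockdown groups, had a negative interaction (-0.60, SE 0.13). Median interaction over the 39 genes was -0.15.

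**Figure D4:**
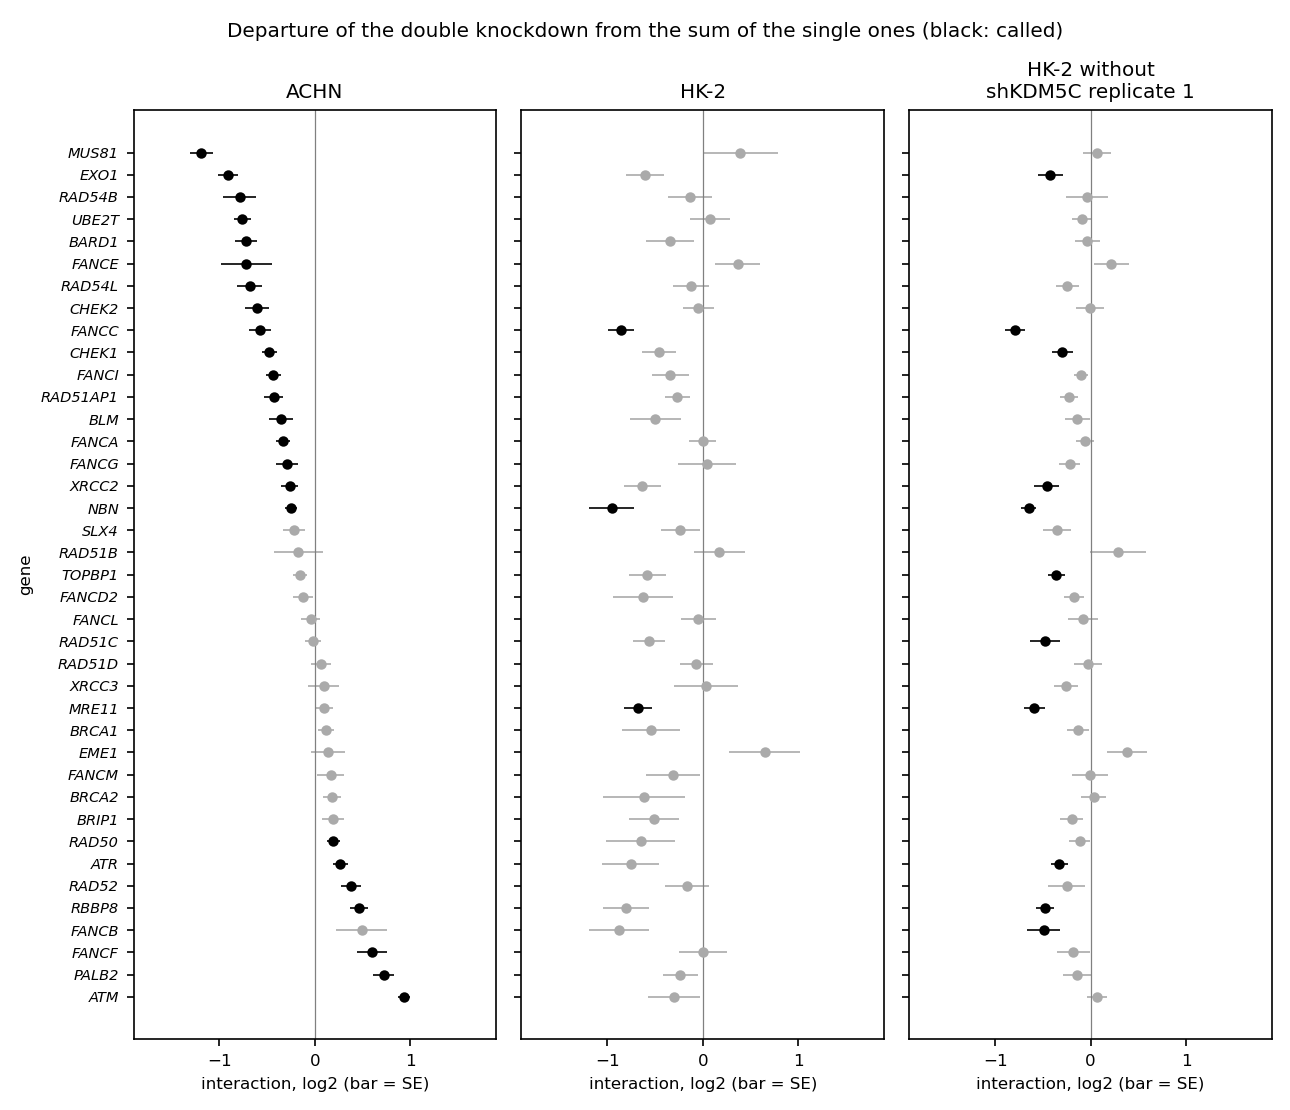
Interaction of the knockdowns (log2, bar = SE) for the 39 genes in ACHN (left), in HK-2 (middle) and in HK-2 without shKDM5C replicate 1 (right), ordered by the ACHN value. Black points have an adjusted p under 0.05: 17 negative and 7 positive in ACHN, 3 negative in HK-2 and 11 negative in HK-2 without that library.

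In HK-2, knockdown of both genes lowered 20 of the 39 genes and raised 4. The background was 24.3% lower and 25.5% higher of the 16217 genes tested, and the members' shares were 51.3% and 10.3%. The median log2 change was -0.19, and 22 of the 24 calls were kept whichever library was left out. With all 12 HK-2 libraries in 1 fit, which puts shKDM5C replicate 1 into the spread, 7 genes were lower rather than 20. The share of all genes lower in that fit is not given here. No gene reached the absolute log2 change of 1.5. FANCC fell most, from 56, 48.4 and 51.2 CPM in shNC to 25, 22.8 and 23.5 in Dsh (log2 change -1.13, SE 0.079, adjusted p = 2.53e-13). FANCE was at 17.1, 17.6 and 16 CPM in shNC and 9.73, 8.45 and 11.2 in Dsh (log2 change -0.79, SE 0.13, adjusted p = 3.98e-06). FANCM, the helicase that anchors the core complex on DNA, was at 13.9, 18.1 and 15.2 CPM and 9.79, 10.4 and 11.8 (log2 change -0.56, SE 0.13, adjusted p = 0.000468). The shNC and Dsh libraries did not overlap for any of these 3 Fanconi genes. RAD52 was at 15.7, 15.2 and 15.9 CPM in shNC and 8.38, 11.9 and 8.56 in Dsh (log2 change -0.70, SE 0.13, adjusted p = 5.5e-05). EXO1 was at 35.4, 38.2 and 32.6 CPM in shNC and 21.5, 22.7 and 22.6 in Dsh (log2 change -0.67, SE 0.087, adjusted p = 1.17e-07). NBN was at 189, 191 and 179 CPM in shNC and 127, 133 and 133 in Dsh (log2 change -0.51, SE 0.048, adjusted p = 1.82e-10). MRE11 fell with NBN, by 0.29 on the log2 scale, and RAD50 changed by -0.07 (SE 0.069, adjusted p = 0.4).

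Most of the other falls in HK-2 Dsh were smaller, and they covered both subunits of the clamp and 3 of the 5 BRCA genes. FANCD2 was at 67.3, 59.4 and 66.1 CPM in shNC and 52.6, 49.1 and 46 in Dsh (log2 change -0.39, SE 0.068, adjusted p = 1.69e-05), and FANCI fell by 0.19. BRCA1 was at 62.7, 69.8 and 67.1 CPM in shNC and 45.3, 49.1 and 46.8 in Dsh (log2 change -0.50, SE 0.065, adjusted p = 1.22e-07), with BARD1 and BRCA2 lower by smaller amounts. In the paralogs the directions were mixed. RAD51B was at 2.68, 3.26 and 2.62 CPM in shNC and 7.55, 6.22 and 6.29 in Dsh (log2 change 1.23, SE 0.20, adjusted p = 6.15e-06), the largest rise of any member in any comparison with shNC, at a low level. RAD51D was at 18.9, 22.2 and 23.2 CPM and 32.3, 25.8 and 27.4 (log2 change 0.41, SE 0.100, adjusted p = 0.000991). RAD51C fell, from 17.1, 21.2 and 18.8 CPM to 13.2, 14.7 and 14 (log2 change -0.45, SE 0.11, adjusted p = 0.00134), and XRCC2 fell by 0.40 on the log2 scale. CHEK2 rose from 16.8, 16.1 and 18.9 CPM to 28, 26 and 28.1 (log2 change 0.66, SE 0.097, adjusted p = 1.02e-06), while ATR, CHEK1 and TOPBP1 fell by 0.28 to 0.33. UBE2T was higher by 0.18, but its shNC and Dsh libraries overlapped and the call was lost on leaving out 4 of the 6 libraries. None of the 3 joint molecule nucleases passed the test.

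YY1 knockdown alone in HK-2 lowered 7 of the 39 genes and raised 3, against 14.7% and 14.3% of the 16071 genes tested, with a median log2 change of -0.01. The share that was lower (17.9%) was thus near the background, and the share that was higher (7.69%) was below it. FANCE was at 8.55, 7.65 and 8.9 CPM in shYY1 (log2 change -1.02, SE 0.12, adjusted p = 1.16e-06). FANCM was at 9.8, 11.2 and 10.9 CPM (log2 change -0.57, SE 0.13, adjusted p = 0.00156) and RAD52 at 10.7, 12 and 10.3 CPM (log2 change -0.51, SE 0.12, adjusted p = 0.00205). The shYY1 and Dsh libraries of these 3 genes overlapped, and none passed the test of Dsh against shYY1 (adjusted p = 0.21, 0.972 and 0.32). BRCA2 was at 49.8, 52.7 and 46.7 CPM in shNC and 32, 41.9 and 37.4 in shYY1 (log2 change -0.42, SE 0.086, adjusted p = 0.000657), and BRCA1 at 58.2, 56.5 and 44.9 CPM in shYY1 (log2 change -0.33, SE 0.081, adjusted p = 0.00358). ATM was at 43.6, 48.6 and 43.7 CPM (log2 change -0.30, SE 0.070, adjusted p = 0.00244). Higher in shYY1 were CHEK2, at 23.9, 25.3 and 20.9 CPM (log2 change 0.43, SE 0.11, adjusted p = 0.00351), and RAD51D, at 27.4, 25 and 27.8 CPM (log2 change 0.31, SE 0.097, adjusted p = 0.0178), the latter losing its call on leaving out 3 of the 6 libraries. Leaving out shNC replicate 1 or shYY1 replicate 3 left 1 higher gene. When all 12 HK-2 libraries were fitted together, so that the spread of shKDM5C replicate 1 entered, 1 gene was lower and 1 higher. The share of all genes called in that fit is not given here.

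KDM5C knockdown alone in HK-2 gave no call among the 39 genes, against 0.656% lower and 0.668% higher of the 16161 genes tested by edgeR. At an unadjusted p under 0.05, 2 genes were higher and 0 lower, and DESeq2 called 1 higher, with the share of all genes at those settings not given here. Without shKDM5C replicate 1, 3 genes were higher and 0 lower, with 10.9% of all genes lower and 11.5% higher. Those were FANCB (log2 change 0.44, SE 0.12, adjusted p = 0.00744), RAD51B (log2 change 0.72, SE 0.23, adjusted p = 0.0252) and RBBP8 (log2 change 0.21, SE 0.067, adjusted p = 0.0226). FANCB was at 12.8, 13.4 and 12.9 CPM in shNC and 31, 18.4 and 17.2 in shKDM5C, where replicate 1 is the first value. RBBP8 was at 54.6, 50.3 and 52.8 CPM in shNC and 97.4, 60.5 and 62.3 in shKDM5C. The remaining replicates of both genes were thus also above shNC. FANCC, lower in ACHN shKDM5C, was at 46.2, 44.1 and 46.4 CPM in HK-2 shKDM5C. These values lay below every HK-2 shNC library, but the test with replicate 1 in the fit was not passed (adjusted p = 0.55).

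Against shYY1 in HK-2, 17 genes were lower and 2 higher in Dsh (background 22.9% and 24.8% of 15947 genes). FANCC was at 46, 49.3 and 48.2 CPM in shYY1 (log2 change -1.01, SE 0.081, adjusted p = 3.65e-10 for Dsh against shYY1). RAD51C was at 20.5, 19.4 and 21.2 CPM (log2 change -0.54, SE 0.11, adjusted p = 0.000227) and NBN at 176, 191 and 203 CPM (log2 change -0.53, SE 0.058, adjusted p = 5.75e-08). All Dsh libraries were below all shYY1 libraries for these genes. MRE11 was at 43.5, 48.8 and 50.6 CPM in shYY1 and 33.2, 36.1 and 34.6 in Dsh (log2 change -0.46, SE 0.079, adjusted p = 3.99e-05). EXO1 (log2 change -0.45, SE 0.094, adjusted p = 0.000364) and XRCC2 (log2 change -0.40, SE 0.095, adjusted p = 0.00111) were lower too. RAD51B (log2 change 0.99, SE 0.20, adjusted p = 0.000203) and ATM (log2 change 0.18, SE 0.072, adjusted p = 0.0391) were higher, and the call on ATM was lost on leaving out 5 of the 6 libraries. Each Dsh library, and shYY1 replicate 3, left 1 higher gene when it was left out.

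Compared with shKDM5C, 4 genes were lower and 0 higher in HK-2 Dsh (background 5.59% and 6.26% of 16042 genes). Those were FANCC (log2 change -0.98, SE 0.13, adjusted p = 0.00495), NBN (log2 change -0.93, SE 0.22, adjusted p = 0.0341), EXO1 (log2 change -0.83, SE 0.17, adjusted p = 0.0247) and MRE11 (log2 change -0.51, SE 0.13, adjusted p = 0.0454). The call on FANCC was kept whichever library was left out, and those on NBN, EXO1 and MRE11 were lost on leaving out 3, 4 and 5 of the 6 libraries. At an unadjusted p under 0.05, 19 genes were lower and 1 higher, and DESeq2 called 14 lower and 0 higher. The share of all genes at those settings is not given here, so these counts do not set the members against other genes. Without shKDM5C replicate 1, 24 genes were lower and 3 higher, against 21% and 22.2% of all genes. FANCC (log2 change -0.93, SE 0.086, adjusted p = 5.32e-09), NBN (log2 change -0.64, SE 0.049, adjusted p = 2.45e-10) and EXO1 (log2 change -0.65, SE 0.093, adjusted p = 4.02e-06) were among those lower, and CHEK2 (log2 change 0.41, SE 0.100, adjusted p = 0.00172) was among those higher. On leaving out shKDM5C replicate 2 the count was 2 lower, and without any 1 Dsh library it was 1.

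The interaction in HK-2 was negative for 3 genes and positive for 0, against 4.4% and 5.21% of the 17093 genes tested. They were FANCC (log2 interaction -0.86, SE 0.14, adjusted p = 0.00232), MRE11 (log2 interaction -0.68, SE 0.15, adjusted p = 0.0125) and NBN (log2 interaction -0.96, SE 0.23, adjusted p = 0.022), and the call on NBN was lost on leaving out 8 of the 12 libraries. At an unadjusted p under 0.05, 11 were negative and 0 positive, and DESeq2 called 7 negative and 0 positive. The share of all genes at those settings is not given here, so these counts do not set the members against other genes. Without shKDM5C replicate 1, 11 genes were negative and 0 positive, with 13.7% and 15% of all genes called. FANCC (log2 interaction -0.79, SE 0.11, adjusted p = 1.76e-06), MRE11 (log2 interaction -0.59, SE 0.11, adjusted p = 0.000123) and NBN (log2 interaction -0.65, SE 0.077, adjusted p = 1.53e-07) were again among them, joined by RBBP8 (log2 interaction -0.48, SE 0.092, adjusted p = 0.000181) and EXO1 (log2 interaction -0.42, SE 0.13, adjusted p = 0.0141). Leaving out shKDM5C replicate 2 gave 5 and leaving out replicate 3 gave 8 negative genes.

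The lines share no library, so their Dsh calls can be set against each other: 14 genes were lower in both, which is 63.6% of the 22 lower in ACHN and 70% of the 20 lower in HK-2. Over the 14784 genes tested in both lines, 1884 were lower in both, which is 39.9% of those lower in ACHN and 50.3% of those lower in HK-2. These were BRCA1, BARD1, BRCA2, XRCC2, RAD52, RAD54L, FANCA, FANCC, FANCE, FANCG, FANCI, EXO1, CHEK1 and TOPBP1. CHEK2 was higher in both. RAD51D and UBE2T were lower in ACHN and higher in HK-2, although the ACHN call on RAD51D was lost on leaving out 3 of 6 libraries and the HK-2 call on UBE2T on leaving out 4 of 6, and NBN and ATR were higher in ACHN and lower in HK-2. The difference between the lines was tested directly, as the ACHN change minus the HK-2 change in a fit of the shNC and Dsh libraries of both lines. It was negative for 11 genes and positive for 11, against 22.7% and 23.3% of the 18087 genes tested, and the median over the 39 genes was -0.04.

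RAD51B gave the largest difference (log2 difference -1.51, SE 0.29, adjusted p = 8.1e-05), rising in HK-2 and not passing the test in ACHN, where its values were 4.72, 7.44 and 6.55 CPM in shNC and 5.25, 6.48 and 3.59 in Dsh. RAD54B (log2 difference -1.16, SE 0.20, adjusted p = 2.08e-05) fell in ACHN, and its HK-2 values, 7.38, 7.23 and 9.01 CPM in shNC and 8.79, 7.4 and 8.39 in Dsh, overlapped. UBE2T (log2 difference -0.64, SE 0.100, adjusted p = 4.47e-06), RAD51D (log2 difference -0.62, SE 0.14, adjusted p = 0.000414), MUS81 (log2 difference -0.51, SE 0.14, adjusted p = 0.00322) and BLM (log2 difference -0.47, SE 0.13, adjusted p = 0.00397) were also more negative in ACHN. On the positive side ATM (log2 difference 0.83, SE 0.077, adjusted p = 4.72e-10) came first. In HK-2 it was at 53, 56.5 and 56.8 CPM in shNC and 51.2, 51.5 and 51.2 in Dsh, which did not pass the test, whereas it rose in ACHN. ATR (log2 difference 0.75, SE 0.084, adjusted p = 1.98e-08) was at 88.5, 85.1 and 92.8 CPM in HK-2 shNC and 67.2, 75.5 and 72.2 in HK-2 Dsh. NBN (log2 difference 0.70, SE 0.068, adjusted p = 1.1e-09) fell in HK-2 and rose in ACHN, and FANCM (log2 difference 0.71, SE 0.17, adjusted p = 0.00123) fell in HK-2 and did not pass the test in ACHN. RAD52 (log2 difference 0.47, SE 0.15, adjusted p = 0.0102) fell in both lines and more in HK-2, and FANCF (log2 difference 0.47, SE 0.17, adjusted p = 0.0239) lost its call on leaving out 6 of the 12 libraries. For FANCC (log2 difference 0.10, SE 0.12, adjusted p = 0.527) and FANCE (log2 difference -0.14, SE 0.23, adjusted p = 0.675), which fell strongly in both lines, the test of the difference was not passed. The knockdown of YY1 itself was weaker in ACHN Dsh, at -0.51 on the log2 scale, than in HK-2 Dsh, at -1.49, and that of KDM5C was -0.80 and -1.49. The part of this gap in the differences between the lines was not tested.

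**Figure D5:**
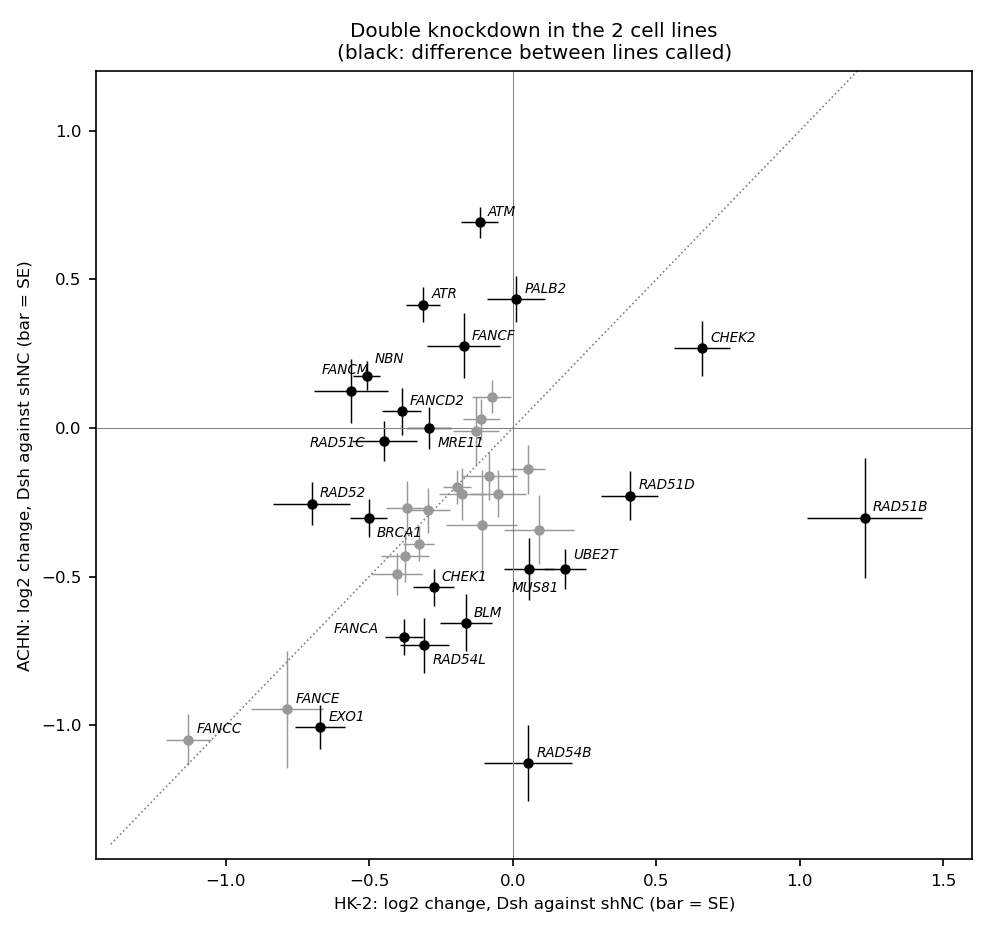
Log2 change of Dsh against shNC in HK-2 (x axis) and in ACHN (y axis) for the 39 genes, with bars of 1 SE and a dotted line of equal change. Black points are the 22 genes whose change differed between the lines at an adjusted p under 0.05, and FANCC lies near the line of equal change at -1.13 in HK-2 and -1.05 in ACHN.

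Other genes of the same pathways were read from a list of 44 that are not members. In ACHN Dsh 18 of the 43 tested were lower and 17 higher (background 32% and 30.7%), with a median log2 change of -0.05. In HK-2 Dsh 14 of 43 were lower and 8 higher (background 24.3% and 25.5%), with a median of -0.06. TIMELESS, which protects the replication fork, fell in ACHN (log2 change -0.98, SE 0.052, adjusted p = 8.21e-12) and in HK-2 (log2 change -1.24, SE 0.052, adjusted p = 1.27e-18). RMI1, the partner of BLM, fell by 0.87 in ACHN and by 0.51 in HK-2 on the log2 scale. USP1, which removes ubiquitin from the FANCD2-FANCI clamp, fell by 0.82 in ACHN and by 0.25 in HK-2. H2AX, the histone marked at breaks, fell by 1.03 in HK-2 and rose by 0.32 in ACHN. ZSWIM7 rose in both lines, by 0.69 in ACHN and 0.82 in HK-2. Of 20 end joining genes, 5 of the 18 tested were lower and 4 higher in ACHN Dsh (median -0.08), and 7 of 19 were lower and 2 higher in HK-2 Dsh (median -0.21). Of 17 nucleotide excision and mismatch repair genes, 7 were lower and 6 higher in ACHN Dsh (median -0.09), and 10 were lower and 1 higher in HK-2 Dsh (median -0.25).

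Most genes of a proliferation list were lower in Dsh of both lines. Of 17 genes in that list, which includes the cell cycle inhibitor CDKN1A, 12 were lower and 3 higher in ACHN Dsh, with a median log2 change of -0.66, and 14 were lower and 2 higher in HK-2 Dsh, with a median of -0.54. Without CDKN1A, the summed level of the list ran from 2044 to 2127 CPM in ACHN shNC and from 1466 to 1535 in ACHN Dsh. In HK-2 it ran from 3762 to 3886 CPM in shNC and from 2633 to 2714 in Dsh. MKI67, a marker of cycling cells, averaged 457 ± 15.2 CPM (SD, n = 3) in ACHN shNC and 287 ± 22.4 in ACHN Dsh, and 859 ± 22.6 in HK-2 shNC and 593 ± 39.2 in HK-2 Dsh. Some genes of the list went the other way. In ACHN, PCNA averaged 160 CPM in shNC and 182 in Dsh, and TOP2A 279 and 331. In HK-2, CDK1 averaged 136 CPM in shNC and 163 in Dsh. CDKN1A averaged 135 ± 5.47 CPM in ACHN shNC and 638 ± 39.9 in Dsh, and 49.5 ± 2.65 in HK-2 shNC and 146 ± 3.68 in Dsh. In the ACHN single knockdowns the summed level was higher than in shNC, at 2516 to 2613 CPM in shKDM5C and 2207 to 2277 in shYY1. Single genes of the list went both ways. Of the 17, 4 were lower and 9 higher in shKDM5C (background 27.7% and 28.9%). In shYY1, in which 16 members fell, 5 were lower and 9 higher (background 24.5% and 24.2%). There CDC6 averaged 53.7 CPM against 96.8 in shNC and MCM6 126 against 163, while MKI67 averaged 575 against 457. The part of this list in the members' changes was not tested. Of the markers of other cell types, PTPRC, PECAM1, ALB and HBB averaged at most 1.05 CPM in any group, while COL1A1 averaged 584 CPM in ACHN shNC and 49.7 to 159 in the ACHN knockdown groups.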

How the data were processed

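RNA-seq was performed in 24 libraries of ACHN and HK-2 cells, 3 per group. The values are gene counts deposited by the authors, who aligned paired reads to GRCh38 with HISAT2 (2.0.5 per the submitters' notes) and counted read pairs per gene without strand. The notes name featureCounts 1.5.0-p3 and the file headers name version 2.0.1. Replicates were not pooled. The study's methods state in general that quantitative experiments were done independently at least 3 times. They do not say for these libraries whether replicates came from separate cultures, so p-values measure the spread between these libraries only. A gene that shares exon bases with a neighbour can hold or lose reads of that neighbour.

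The members and gene lists were chosen with earlier results of these data known. Counts were filtered, TMM scaled and fitted with edgeR 4.0.16 (quasi-likelihood test, R 4.3.3) on the groups compared, and p-values were adjusted by Benjamini-Hochberg over all genes tested in a comparison. The SE of a log2 change is its size divided by the square root of the F statistic. The HK-2 comparisons with shKDM5C were refitted without replicate 1 of that group, as one of the planned fits that leave out each library. The genes given in full were, in each comparison, those with an adjusted p under 0.05, no overlap between groups and a mean of at least 1 CPM, up to 6 lower and 6 higher by size of change, and in each role group the gene with the largest change in ACHN Dsh against shNC. KDM5C and YY1 were read as the check of the knockdowns. Alternatives were DESeq2 1.42.0, RLE and total-count scaling, other filters on low counts, all libraries of a line or of the series in the fit, a replicate block, and the threshold used in the study. Except for the fits without HK-2 shKDM5C replicate 1, counts under alternatives are given without the share of all genes called. Such counts describe how the calls depend on processing and do not set the members against other genes. The script was tested on simulated data with the same spread for every gene. With log2 changes of 1 in 100 genes of the ACHN Dsh comparison (16186 genes), 87% were recovered, and 96% of log2 changes of 2. For log2 changes of 1, recovery was 68% in the ACHN interaction and 72% in the Dsh effect between the lines. False calls were 5.23% and 4.82% of the calls in those tests. Smaller changes were not simulated. Same-numbered libraries did not deviate together (correlations of their deviations from the group means ran from -0.221 to 0.0894), so replicate numbers were not taken to pair the libraries. Promoter windows were read from RefSeq (GRCh38.p14), with 36 of the 39 genes matched by symbol.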

Additional observations from a re-analysis of the deposited data

Results flagged for a closer look

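The change in Dsh against shNC differed between ACHN and HK-2 for 22 of the 39 genes (edgeR's quasi-likelihood test of the difference, adjusted p under 0.05), 11 in each direction, against 22.7% negative and 23.3% positive of the 18087 genes tested, and those genes are listed here for that reason. Values are the ACHN log2 change minus the HK-2 log2 change. The difference was negative for RAD51B (-1.51), RAD54B (-1.16), UBE2T (-0.64), RAD51D (-0.62), MUS81 (-0.51), BLM (-0.47), RAD54L (-0.40), CHEK2 (-0.37), EXO1 (-0.32), FANCA (-0.31) and CHEK1 (-0.24). It was positive for ATM (0.83), ATR (0.75), FANCM (0.71), NBN (0.70), RAD52 (0.47), FANCF (0.47), FANCD2 (0.46), PALB2 (0.44), RAD51C (0.42), MRE11 (0.31) and BRCA1 (0.22). The call was lost on leaving out 9 of the 12 libraries for BRCA1, 6 for FANCF, 5 for CHEK1, 2 each for MRE11 and CHEK2 and 1 for EXO1. In NBN, ATR, UBE2T and RAD51D the change passed the test in each line with opposite directions, but the HK-2 call on UBE2T was lost on leaving out 4 of the 6 libraries and the ACHN call on RAD51D on leaving out 3.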

How the results depend on the processing

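Named genes kept their direction under every alternative: of 1747 alternative values for 124 results, 1679 also kept their side of the threshold, 68 lost the call and 0 reversed. With the study's threshold (an unadjusted p under 0.05 and an absolute log2 change of at least 1.5) the number of genes called was 0 in each direction of every knockdown comparison and interaction, 1 lower and 0 higher for ACHN shNC against HK-2 shNC, and 1 lower and 0 higher for the Dsh effect between the lines. DESeq2 gave 5 lower for ACHN shKDM5C, 1 higher for HK-2 shKDM5C, 14 lower for HK-2 Dsh against shKDM5C, 1 higher for HK-2 Dsh against shYY1 and 7 negative for the HK-2 interaction. Without a filter on low counts these were 9 lower for HK-2 Dsh against shKDM5C, 1 higher for HK-2 Dsh against shYY1 and 6 negative for the HK-2 interaction, and total-count scaling gave 11 lower for HK-2 shYY1. With all 12 HK-2 libraries in 1 fit, which puts shKDM5C replicate 1 into the spread, HK-2 shKDM5C had 2 higher, shYY1 had 1 lower and 1 higher, Dsh had 7 lower, Dsh against shKDM5C had 19 lower and 1 higher, and Dsh against shYY1 had 5 lower and 1 higher. With all 24 libraries 6 genes were higher in ACHN shNC than in HK-2 shNC. The replicate block left 1 lower gene in HK-2 Dsh against shKDM5C and moved no other count by over 1.5 times. Apart from what the construction of an alternative shows, the cause was not tested. The counts in this section are given without the share of all genes called.

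Leaving out 1 library gave these lowest and highest counts. In ACHN they were 5 and 8 lower for shKDM5C (5 without shKDM5C replicate 1). In HK-2 they were 0 and 3 higher for shKDM5C (3 without replicate 1), 1 and 3 higher for shYY1 (1 without shNC replicate 1 or shYY1 replicate 3), and 1 and 24 lower with 0 and 3 higher for Dsh against shKDM5C (24 and 3 without shKDM5C replicate 1). They were 1 and 3 higher for HK-2 Dsh against shYY1 (1 without shYY1 replicate 3 or any Dsh library) and 2 and 11 negative for the HK-2 interaction (11, 5 and 8 without shKDM5C replicates 1, 2 and 3). RAD51B had the largest SE of the 39 genes in the Dsh comparisons with shNC of both lines, and it averaged 6.24 CPM in ACHN shNC and 2.85 CPM in HK-2 shNC, so few counts stand behind its values.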
